A study of Oryctolagus cuniculus with 3 samples.

Results

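F-box proteins are the adaptors of the SCF ubiquitin ligases, and the genes described here are those whose symbol in the deposited gene tables is FBXO, FBXL or FBXW followed by a number. Of 39681 rows in the gene table, 77 carried such a symbol. They comprised 56 genes with a RefSeq messenger RNA (33 FBXO, 16 FBXL and 7 FBXW genes) and 21 further assembled rows that lie at 9 of the same genes. RNA came from cumulus-oocyte complexes, in which granulosa-type cumulus cells enclose the oocyte, of IRA rabbits (Oryctolagus cuniculus), which were females aged 35 days at the start and kept in controlled rooms for 4 weeks. The groups were LAC, with ammonia (NH3) at 10 ppm, HAC, with ammonia at 30 ppm, and CG, the control group, with ammonia under 3 ppm. The study had 150 rabbits (number per library not given in the sources used here). There was 1 library per group, so no difference below has a replicate check and none was tested.

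An SCF ligase is built on the scaffold CUL1, which holds the RING protein RBX1 and, through the linker SKP1, one F-box protein. The F-box protein binds the substrate, often only once the substrate is phosphorylated, and so decides which protein receives ubiquitin. Members with WD40 repeats are named FBXW, members with leucine-rich repeats FBXL, and the rest FBXO. In the oocyte, FBXO43 (also called EMI2) is known for holding the egg in metaphase II by inhibiting the anaphase-promoting complex, and FBXO5 (EMI1) inhibits the same complex in meiotic and mitotic cells.

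Before the values, the labels need a caveat. The gene table deposited for HAC repeated that of LAC in all 39681 rows, so no gene-level comparison at 30 ppm was made, and which group the repeated table came from is uncertain. Its highest FPKM, 39491.82, is the one given in the statistics block of the HAC file, whereas 86393.85 stands in that of the LAC file. The HAC statistics block counts 72520954 valid reads, as does the mapping block of the LAC file, and 72141648 valid reads stand in the LAC statistics block and the HAC mapping block. The statistics and mapping blocks are thus crossed between these files. In the long non-coding tables, at loci with 1 transcript, 97.3% of 8638 counts of that table followed from the LAC coverage to within 5%, and 4.15% of 8795 from the HAC coverage. The table is called LAC here, and every LAC direction rests on that label. Estimated counts summed to 68523767 in LAC and 78461882 in CG, with each count worth about 0.5 of a read.

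Of the 56 F-box genes, 55 had at least 10 estimated counts in the higher library. In LAC, 7 of these 55 were lower than in CG by 1 or more on the log2(CPM + 1) scale, where CPM is an estimated count relative to library size, scaled by trimmed mean of M values (TMM) factors: FBXW12, FBXO25, FBXO5, FBXO7, FBXO33, FBXO43 and FBXO34. This is 12.7% of the members, beside 11.0% of 15009 coding genes, so the share is near the background. None of the 55 was higher by that size, beside 1.89% of coding genes. The other 48 lay between -0.92 and 0.50. With TMM factors taken from coding genes alone, which raises every log2 ratio by 0.18, 3 members stayed past the size of 1 (FBXW12, FBXO25 and FBXO5), beside 8.93% of coding genes.

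The median difference of the 55 members was -0.09, against -0.14 over all coding genes. The family's median had the opposite sign, 0.05, with factors from coding genes alone, where the median of coding genes was -0.00. With these factors FBXO18, FBXW11 and FBXO11 lay at 0.08, 0.07 and 0.17, so the sign of members this near to 0 depends on the scaling. Most members lay near 0, with 42 of 55 (76.4%) within 0.5 in either direction, beside 66.8% of coding genes. Below 0 were 37 members (67.3%), beside 61.9% of coding genes, and 18 lay above it. All 7 lower members were among the 36 with a mean of at least 10 CPM, where they made up 19.4%, beside 10.9% of 8462 coding genes at that level. This share depends on the scaling, as 3 of the 7 stayed past the size of 1 with factors from coding genes alone. Summed over all 56 genes, F-box messenger RNA came to 1773.5 CPM in LAC and 2351 CPM in CG. The 7 lower members accounted for 204 CPM in LAC and 602 CPM in CG, and the other genes for 1569 CPM in LAC and 1749 CPM in CG. The pseudocount of 1 understates the change of genes with low counts, so folds below are ratios of CPM without it, with exact binomial 95% intervals that cover counting error only.

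**Figure D1:**
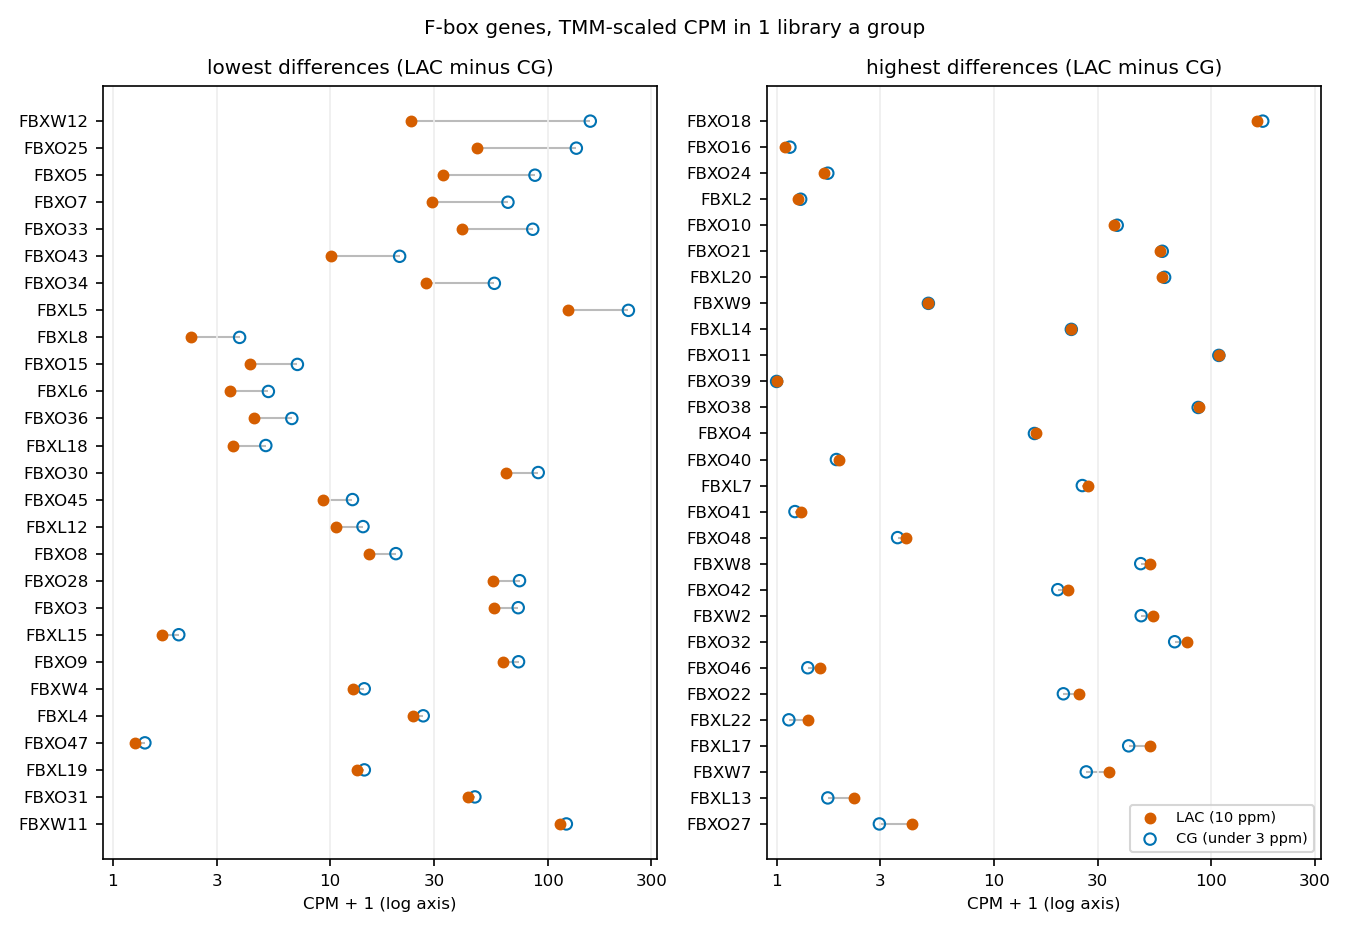
Each row is 1 of 55 F-box genes, with its CPM + 1 on a log axis in the LAC library (filled points) and the CG library (open points), ordered from the lowest to the highest difference down the left and then the right panel. FBXW12, at 22.6 CPM in LAC and 156 CPM in CG, has the widest gap, and FBXO11 is among the genes whose points coincide.

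Both inhibitors of the anaphase-promoting complex were lower in LAC. Among coding genes, 10.2% had a lower difference than FBXO43 and 6.15% a lower one than FBXO5. FBXO43 (NC_013671.1, 115744370 to 115768407, minus strand, build OryCun2.0) had 614 estimated counts or 9.04 CPM in LAC, against 1572 counts or 19.9 CPM in CG. The ratio was 2.20-fold lower in LAC, with an interval of 1.92 to 2.51 that includes a 2-fold change, and the log2(CPM + 1) difference was -1.05. With factors from coding genes alone that difference was -0.89, and with a pseudocount of 5 it was -0.82. FBXO5 (NC_013680.1, 143098882 to 143108865, minus strand) had 32.1 CPM in LAC, against 86.5 CPM in CG. It was 2.69-fold lower (2.51 to 2.89), with a difference of -1.40, and stayed past -1 at every setting tried.

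Markers of the oocyte moved in the same direction. Of 24 oocyte markers listed, 21 had a coding row, and 20 of these were lower by 1 or more in LAC, with a median difference of -2.13 and a range of -3.12 to -0.28. Their summed level was 1195 CPM in LAC and 6063 CPM in CG, and none was at 0 in either library. Of 16 cumulus and granulosa markers, 13 had a coding row. None of these was lower by 1, PTX3 was higher, and the median was 0.19, with a range of -0.90 to 1.43. Below 0 lay 4 of them and above it 9. Their sum was 15890 CPM in LAC and 14882 CPM in CG, of which FOXO1 alone had 2518 CPM in LAC and 1340 CPM in CG. On the log2(CPM + 1) scale, FBXO43 was thus less far below CG than 20 of the 21 oocyte markers, and FBXO5 less far than 18 of them. By CPM ratio, the low-count markers NOBOX (4.54-fold lower) and FIGLA (6.17-fold lower) also lay farther below CG than FBXO5. In RNA of whole complexes, fewer oocytes per sample and less RNA per oocyte cannot be told apart, and the part of the oocyte signal in the F-box differences was not tested.

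**Figure D2:**
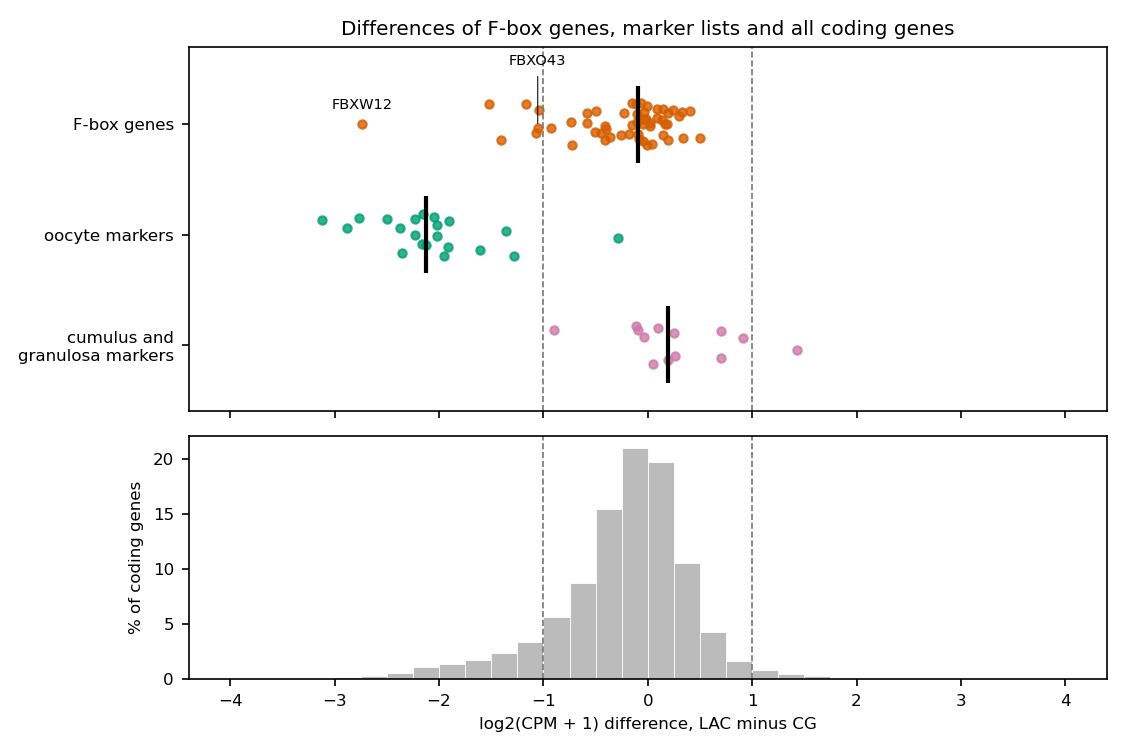
The upper panel gives the log2(CPM + 1) difference, LAC minus CG, of each F-box gene, oocyte marker and cumulus or granulosa marker (points) with the median of each set (black line), and the lower panel the percentage of coding genes in each bin of 0.25. Most F-box genes sit with the bulk of coding genes around a median of -0.09, FBXW12 lies among the oocyte markers, whose median is -2.13, and the dashed lines mark a difference of 1 in either direction.

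Among the 7 WD40-repeat members, 1 was lower by the size rule, beside 11.0% of coding genes. Their median was -0.01, against -0.14 over coding genes. FBXW12 (NC_013677.1, 16103955 to 16120701, plus strand) is little characterised, and in the mouse a cluster of related Fbxw genes is expressed preferentially in oocytes. It had 1535 estimated counts or 22.6 CPM in LAC, against 12361 counts or 156 CPM in CG. Its ratio was 6.91-fold lower in LAC (6.40 to 7.45) and its difference of -2.73 was the lowest of the family, with only 48 coding genes (0.320%) and 3 of the 21 oocyte markers below it. Another row, LOC100354751, is also described in the files as an FBXW12 protein, so reads of similar copies may be split between them. That row had 0.37 CPM in LAC and 0.61 CPM in CG.

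The other 6 FBXW genes lay within 0.34 of 0. FBXW11, one of the β-TrCP adaptors that bind phosphorylated targets such as β-catenin, had 113 CPM in LAC and 121 CPM in CG (-0.10). FBXW7, the adaptor for cyclin E, MYC and NOTCH, had 32.7 CPM in LAC and 25.6 CPM in CG, a difference of 0.34 with a CPM ratio of 1.28 (1.17 to 1.39). FBXW8, which pairs with the scaffold CUL7 rather than CUL1, had 51.3 CPM in LAC and 46.3 CPM in CG. FBXW2 differed by 0.18, FBXW4 by -0.18 and FBXW9 by -0.01. No β-TrCP or cyclin E adaptor of this group therefore reached the size of 1.

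None of the 16 leucine-rich-repeat members passed the size rule, beside 11.0% of coding genes lower and 1.89% higher in LAC. Their median was -0.08, against -0.14 over coding genes. With so few members, none past the rule is not read as a trait of the subfamily. The member just short of it was FBXL5 (NC_013670.1, 6116227 to 6164219, minus strand), which senses iron and directs the iron regulatory protein IREB2 to degradation. FBXL5 had 123 CPM in LAC, against 234 CPM in CG, a difference of -0.92 and a ratio 1.90-fold lower (1.84 to 1.98). By the mean of both libraries, its messenger RNA drew the most counts of the family. The transcript of its target, IREB2, had 171 CPM in LAC and 207 CPM in CG, a difference of -0.27.

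Members above 0 in this subfamily included FBXL17, FBXL13, FBXL7 and FBXL22. FBXL17, which surveys the pairing of BTB-domain proteins, had 51.3 CPM in LAC and 40.6 CPM in CG (0.33). FBXL13 had 1.28 CPM in LAC and 0.72 CPM in CG, and its difference of 0.41 is uncertain because its span overlaps the opposite-strand genes LRRC17 (over 42751 bases) and ARMC10. FBXL7 differed by 0.09. FBXL22 rested on 27 estimated counts in LAC and 11 in CG, and its ratio of 2.86 had an interval of 0.98 to 8.64 that includes no change.

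A further set of FBXL genes lay below 0 by less than 1. FBXL20 (-0.03), FBXL14 (-0.01), which degrades SNAI1, FBXL19 (-0.11) and FBXL4 (-0.15), which restrains mitophagy, were closest to 0. FBXL12 (-0.41), FBXL18 (-0.50) and FBXL6 (-0.58) were farther below it. FBXL6 is measured by a short row of a small scaffold, from base 4 to base 857. FBXL8 had 1.30 CPM in LAC and 2.83 CPM in CG, a difference of -0.74, but all 3259 bases of its span are shared with TRADD on the other strand. By the rows with these symbols, FBXL15 (-0.26) and FBXL2 (-0.05) were around or under 1 CPM in both libraries. The span of FBXL14 is likewise shared over all 3133 bases with WNT5B, and the use of strand in counting (not given in the sources used here) is unknown.

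Of the 32 FBXO genes with enough counts, 6 were lower by 1 or more, beside 11.0% of coding genes, with a subfamily median of -0.10. Besides FBXO43 and FBXO5 these were FBXO25, FBXO7, FBXO33 and FBXO34. FBXO25 (NW_003159543.1, 392342 to 430839, minus strand) had 46.1 CPM in LAC, against 135 CPM in CG. It was 2.92-fold lower (2.76 to 3.09), with a difference of -1.53. Its close relative FBXO32, the muscle-atrophy ligase atrogin-1, had 76.4 CPM in LAC and 66.8 CPM in CG, a difference of 0.19. These relatives thus lay on opposite sides of 0 at each setting tried.

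FBXO7, a gene of mitophagy in which mutations cause early parkinsonism in humans, lies at NC_013672.1, 88604934 to 88629522, minus strand. It had 28.2 CPM in LAC, against 64.7 CPM in CG, and was 2.29-fold lower (2.13 to 2.47). FBXO33, an adaptor for the RNA-binding protein YBX1, lies at NC_013685.1, 58948563 to 58991302, minus strand. It had 39.6 CPM in LAC, against 84.4 CPM in CG, and was 2.13-fold lower (2.00 to 2.27). FBXO34 lies on the same chromosome, at 74035840 to 74038963, plus strand, and has been studied in mouse oocyte meiosis. It had 26.6 CPM in LAC, against 55.9 CPM in CG, and was 2.10-fold lower, with an interval of 1.94 to 2.27 that includes a 2-fold change. The log2 differences of these 3 genes, -1.17 for FBXO7, -1.07 for FBXO33 and -1.04 for FBXO34, became -0.997, -0.90 and -0.87 with factors from coding genes alone, short of the size of 1.

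Several FBXO genes with many counts hardly differed between the libraries. FBXO11, an adaptor for BCL6, had 107 CPM in LAC and 107 CPM in CG. FBXO18, the DNA helicase FBH1, had 160.5 CPM in LAC and 171 CPM in CG (-0.09). FBXO38, which directs the receptor PD-1 to degradation in T cells, had 87.0 CPM in LAC and 86.0 CPM in CG (0.02). FBXO21 (-0.04), FBXO10 (-0.04), FBXO31 (-0.10), an adaptor for cyclin D1, and FBXO4 (0.02) lay as near to 0. At these levels counting error is small: the interval of the FBXO11 ratio ran from 0.954 to 1.04.

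A middle group was lower in LAC by less than 1. FBXO30, which is needed for chromosome behaviour in mouse oocyte meiosis, had 63.4 CPM in LAC and 89.5 CPM in CG, a difference of -0.49. FBXO28 had 55.3 CPM in LAC and 73.3 CPM in CG (-0.40). FBXO3 had 55.8 CPM in LAC and 72.2 CPM in CG (-0.37). These 3 and FBXO9 (-0.23), FBXO45 (-0.45) and FBXO8 (-0.41) were between 1.18-fold and 1.41-fold lower. FBXO15, known in the mouse as a pluripotency marker, had 3.27 CPM in LAC and 6.06 CPM in CG (-0.73). FBXO36 differed by -0.58, but its span overlaps TRIP12 on the other strand, which itself had 312 CPM in LAC and 658 CPM in CG.

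Members above 0 in this subfamily were few and mostly small. FBXO27, which binds glycoproteins, had the highest difference of the members taken by symbol, 0.50, from 3.20 CPM in LAC and 1.97 CPM in CG. Its ratio was 1.62 (1.20 to 2.19). FBXO22, an adaptor for the demethylase KDM4A, had 23.7 CPM in LAC and 19.9 CPM in CG (0.24), and FBXO42 differed by 0.16, FBXO46 by 0.19 and FBXO48 by 0.13. FBXO40, FBXO41, FBXO46, FBXO24, FBXO47 and FBXO16 were under 1 CPM in both libraries, as were FBXL2 and FBXL22. FBXO39 was at 0 in both, where 3 reads would have given 0.0884 CPM in LAC and 0.0758 CPM in CG.

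Neighbours were the nearest coding genes with at least 10 counts on either side. Of 13 beside the 7 lower members, 4 were lower by 1 or more, and of 96 beside the other members, 12. The background over coding genes was 11.0%, and TESC entered the 12 at both FBXO21 and FBXW8. This difference in shares rests on few neighbours and was not tested. Some neighbours lay far off, such as DLGAP5, 162219 bases from FBXO34 and among the 4, and LOC100349270, 2173773 bases from FBXO33. RGS22, 12016 bases from FBXO43, had 1.49 CPM in LAC and 15.3 CPM in CG, whereas POLR2K, 5998 bases away on the other side, had 18.0 CPM in LAC and 19.3 CPM in CG. Beside FBXW12, neither NME6 (0.22) nor PLXNB1 (0.78) was lower. No lower member shared bases with another coding gene. FBXO43 overlapped over 1824 bases with LOC108176523, an opposite-strand non-coding row described as F-box only protein 43, at 0.69 CPM in LAC and 0.80 CPM in CG.

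The partners of F-box proteins were described from lists of known genes, each to be read beside the 11.0% of coding genes lower in LAC, the 1.89% higher and the median of -0.14. In the SCF core, the linker SKP1 had 152 CPM in LAC, against 311 CPM in CG, a difference of -1.03. RBX1 differed by -0.15, and CUL7, the scaffold that FBXW8 uses, by 0.29, with 104 CPM in LAC and 85.2 CPM in CG. CUL1 was represented only by unannotated assembled rows and is not read here. SKP1 was therefore the core gene past the size of 1, on 3 coding rows, and its ratio was 2.05-fold lower in LAC (1.99 to 2.12). Factors from coding genes alone raise every log2 ratio by 0.18, which would leave SKP1 short of the size of 1. The same holds for LMO7, UBE2D3, COPS7B and ANAPC15, described below.

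F-box genes that carry other names were also described. All 6 with enough counts lay below 0 and 3 passed the size rule, with a median of -1.04. Over all coding genes, 61.9% lay below 0, 11.0% passed the rule downwards and the median was -0.14. ECT2L had 5.20 CPM in LAC, against 27.7 CPM in CG (-2.21). CCNF, cyclin F, an adaptor that limits centrosome and DNA replication, had 25.3 CPM in LAC, against 60.4 CPM in CG (-1.23). LMO7 had 33.0 CPM in LAC, against 71.4 CPM in CG (-1.09). SKP2, which degrades the inhibitor CDKN1B, had 129 CPM in LAC and 258 CPM in CG (-0.99), and BTRC, the partner of FBXW11 in the β-TrCP pair, had 45.1 CPM in LAC and 86.4 CPM in CG (-0.92). The other β-TrCP gene, FBXW11, had differed by -0.10.

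In the lists of E2 and E1 enzymes, 1 of 11 genes was lower by the size rule and the median was -0.37. The E2 enzyme UBE2D3 had 334 CPM in LAC, against 679 CPM in CG (-1.02), and the E1 enzyme UBA1 had 188 CPM in LAC and 244 CPM in CG. Cullin ligases are switched on by attachment of NEDD8 and off by its removal through the COP9 signalosome. None of 14 genes of neddylation and adaptor exchange passed the rule in either direction (median -0.13), among them CAND1 at 345 CPM in LAC and 306 CPM in CG and DCUN1D1 at 88.7 CPM in LAC and 88.4 CPM in CG. Of 9 COP9 genes, COPS7B was lower, at 25.4 CPM in LAC and 55.1 CPM in CG (-1.09), and the median was -0.09. COPS2, with 107 CPM in LAC and 114 CPM in CG, and COPS4, with 78.3 CPM in LAC and 91.1 CPM in CG, drew the most counts of that complex.

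The anaphase-promoting complex, which FBXO43 and FBXO5 inhibit, had 14 genes with enough counts, a median of -0.38 and 12 genes below 0. Its small subunit ANAPC15 was the gene past the size rule, at 6.57 CPM in LAC and 15.2 CPM in CG (-1.10). CDC27 had 193 CPM in LAC and 210.4 CPM in CG, and ANAPC1 had 128 CPM in LAC and 182 CPM in CG. The 9 genes of other cullin ligases, which use other adaptors than F-box proteins, had a median of -0.06 and none past the rule. Among them DDB1 had 427 CPM in LAC and 459 CPM in CG, and CUL4B had 183 CPM in LAC and 193 CPM in CG.

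Transcripts of known F-box targets had a median of -0.48 over 16 genes, 3 of them lower by 1 or more, beside a median of -0.14 and a share of 11.0% over coding genes. CDC25A, a phosphatase that β-TrCP ligases degrade, had 26.4 CPM in LAC, against 91.4 CPM in CG (-1.75). CDC6, a replication-licensing factor that cyclin F degrades, had 15.2 CPM in LAC, against 43.6 CPM in CG (-1.46). CRY1, a repressor of the circadian clock, had 25.1 CPM in LAC, against 70.3 CPM in CG (-1.45). CCND2 had 1391 CPM in LAC and 1365 CPM in CG, and CTNNB1 had 502 CPM in LAC and 681 CPM in CG. Ubiquitin ligases act on proteins, and no protein was measured.

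**Figure D3:**
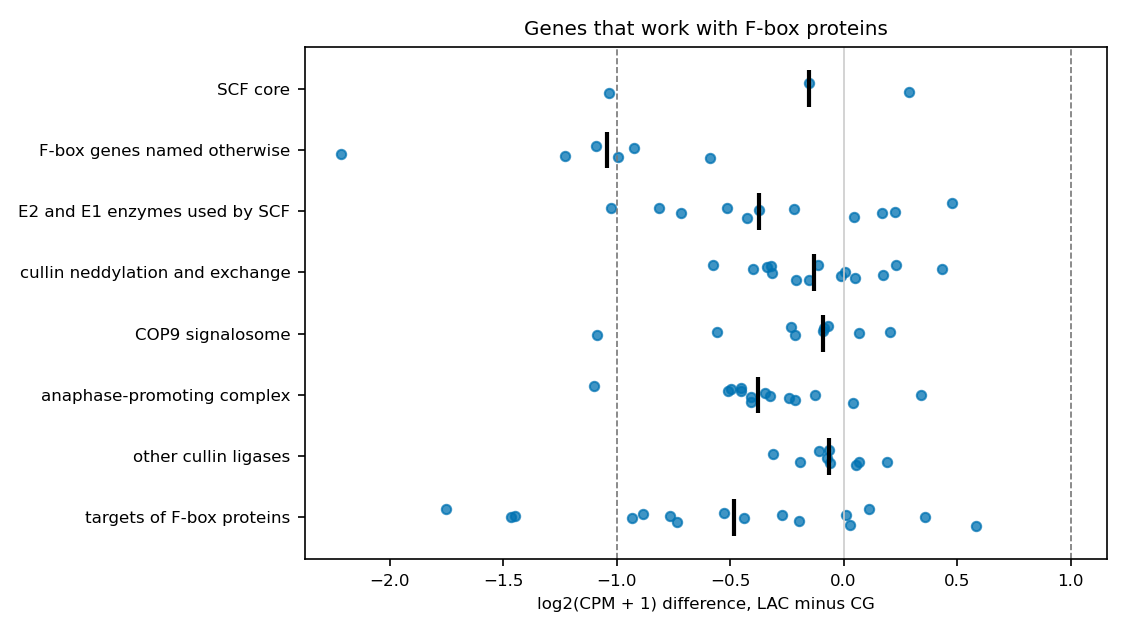
Each point is 1 gene that works with F-box proteins, placed by its log2(CPM + 1) difference, LAC minus CG, with a black line at each list's median and dashed lines at a difference of 1 in either direction. The F-box genes with other names, with a median of -1.04, lie lower than the other lists, and no gene lies above 1.

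The 21 further assembled rows at F-box genes lay mostly above 0. Of 20 with at least 10 counts in the higher library, 16 (80.0%) were above 0 and the median was 0.62, beside 65.8% and a median of 0.27 over 12144 unannotated loci. One was higher by the size rule, beside 7.49% of unannotated loci, and none was lower, beside 6.14%. At FBXL20 the row MSTRG.18453, on the opposite strand, had 3.86 CPM in LAC and 1.16 CPM in CG (1.17), while the messenger RNA row differed by -0.03. At FBXO33 the row MSTRG.16901 had 11.5 CPM in LAC and 5.67 CPM in CG (0.91), while the messenger RNA was lower by 1.07 on the log2 scale. In all, 15 of the 20 rows had a higher difference than the messenger RNA row of their gene. Most of these 15 lie at FBXL7 or FBXL17, so the rows and the share above 0 do not stand for separate genes. Spliced reads made up 16.23% in the mapping block of the LAC file, 19.89% in that of the HAC file and 22.01% in that of the CG file. Because the blocks of the LAC and HAC files are crossed, which of 16.23% and 19.89% belongs to the LAC library is uncertain. The part of spliced reads in the differences of the assembled rows was not tested.

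**Figure D4:**
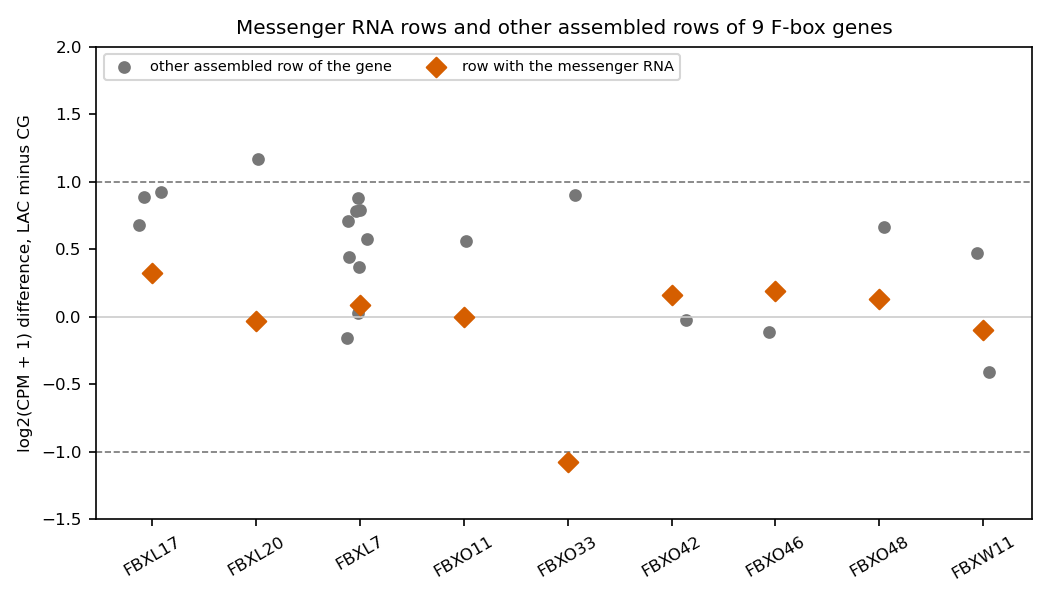
For 9 F-box genes, the log2(CPM + 1) difference, LAC minus CG, of the row with the messenger RNA (diamonds) and of the other assembled rows at the same gene (grey points), with dashed lines at a difference of 1. FBXO33 has the widest separation, with its messenger RNA at -1.07 and its other row at 0.91.

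Long non-coding transcripts were the measurement that covered all 3 libraries. At 7 F-box genes the tables held 18 of them, 16 of which were intronic, at 6 host genes. All 18 lie among the assembled rows above, so their LAC and CG values rest on the same reads. Of the intronic transcripts, 10 lay on the strand opposite the host gene, 3 on the same strand and 3 had no strand. None differed by 1 or more on the log2(FPKM + 1) scale between any pair of libraries, where FPKM adjusts fragments for the length of the transcript and for library size. At these low values the added 1 understates a change, so a ratio above 2 can fall short of this size. MSTRG.18453 of FBXL20, at 0.68 FPKM in CG and 2.19 FPKM in LAC, differed by 0.93 on this scale. On the log2(CPM + 1) scale above, it differed by 1.17, with a CPM ratio of 3.32. Among all intronic transcripts with at least 1 FPKM, 15.0% were higher and 5.52% lower in LAC than in CG, 6.45% higher and 4.58% lower in HAC than in CG, and 6.92% higher and 12.9% lower in HAC than in LAC.

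In LAC, 13 of the 16 intronic transcripts (81.2%) were above CG, with a median difference of 0.51. Over 3514 intronic transcripts of all genes, 78.3% were above CG and the median was 0.46. In HAC, 9 of 14 (64.3%) were above CG, with a median of 0.17, beside 58.0% and 0.09. Set against LAC, 1 of 16 (6.25%) was above in HAC, with a median of -0.29, beside 26.3% and -0.38. The LAC library was the highest of the 3 at 12 of the 16 transcripts, beside 64.9% of 3780 intronic transcripts in all. HAC was the highest at 1, beside 20.4%, and CG at 3, beside 14.4%. The medians of the F-box introns thus had the order of the libraries seen over introns as a whole. HAC exceeded LAC at a smaller share of F-box introns, on few transcripts.

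FBXL7, a large gene on NC_013679.1, held 9 of the 16. Its transcript MSTRG.9969 measured 3.13 FPKM (CG), 5.43 FPKM (LAC) and 4.29 FPKM (HAC). MSTRG.9970 measured 2.77 FPKM (CG), 4.45 FPKM (LAC) and 3.58 FPKM (HAC). MSTRG.9968, from the same stretch of the gene, went the other way, with 4.93 FPKM (CG), 4.10 FPKM (LAC) and 3.16 FPKM (HAC). Its strand is not given and it is 621 bases long.

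FBXL17 held 3 intronic transcripts. MSTRG.9900, on the strand of the gene, measured 1.99 FPKM (CG), 3.17 FPKM (LAC) and 1.29 FPKM (HAC). MSTRG.9901, on the opposite strand, measured 1.59 FPKM (CG), 3.26 FPKM (LAC) and 2.54 FPKM (HAC). The HAC values of this pair thus lay on opposite sides of CG. At FBXO33, MSTRG.16901 measured 1.11 FPKM (CG), 2.15 FPKM (LAC) and 1.07 FPKM (HAC), and at FBXL20, MSTRG.18453 measured 0.68 FPKM (CG), 2.19 FPKM (LAC) and 0.81 FPKM (HAC). In both, the value stood out in LAC alone of the 3 libraries.

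**Figure D5:**
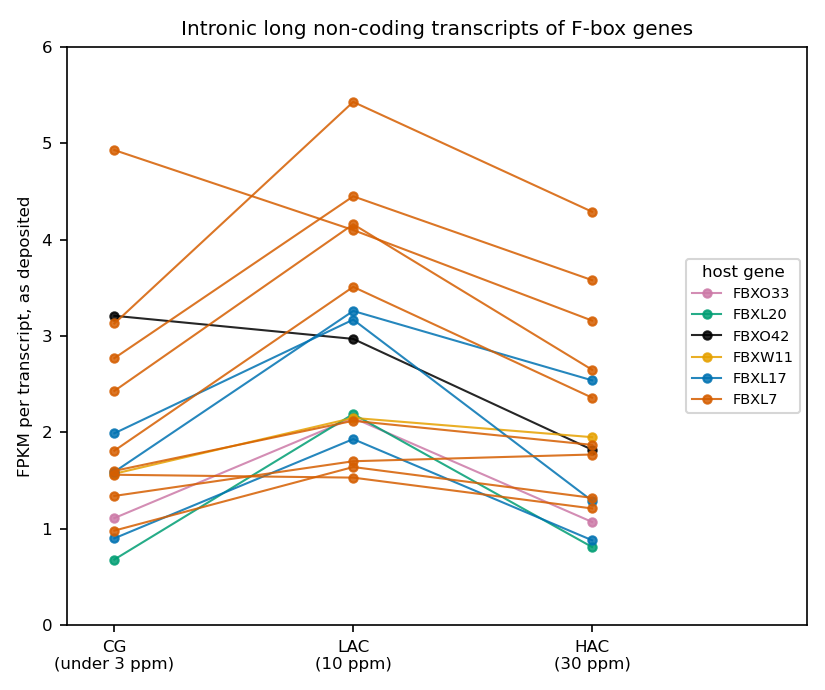
Lines join the deposited FPKM of each of 16 intronic long non-coding transcripts in the CG, LAC and HAC libraries, coloured by host gene. LAC is the highest of the 3 libraries at 12 transcripts, and MSTRG.9968 of FBXL7, at 4.93 FPKM in CG, is among the exceptions.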

How the data were processed

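Each file stacks a gene table and a long non-coding table. The deposited gene tables give an estimated count and an FPKM per locus, per the file headers. The deposited long non-coding tables give FPKM and coverage, a signal of read depth, per transcript. Reads were processed with fastp and HISAT2 on the build OryCun2.0, per the submitters' processing notes. The assembly and abundance tools are not given in the sources used here. Counts equalled coverage times length over 75 at 1-transcript loci within 5% (97.3% in LAC, 96.5% in CG), while reads have 150 bases. A count thus stands for about 0.5 of a read, and intervals used halved counts. Because counts were estimates, no count model was used beyond these binomial intervals, and 2 columns repeated in the HAC file were left unused.

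CPM was computed with TMM factors from their formula (30% of ratios and 5% of levels trimmed), in Python 3.11.15 with pandas 2.3.3, numpy 2.4.6, SciPy 1.17.1 and matplotlib 3.10.9. The size rule was a log2(CPM + 1) difference of 1 with at least 10 counts in the higher library. A row was taken as coding where it held a RefSeq messenger RNA. Intronic transcripts needed 1 FPKM in one of the libraries compared. Gene FPKM has an uncertain scale between genes and served as an alternative. Of the 56 symbols, 55 were in the RefSeq table of mOryCun1.1.

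The rule for named genes took FBXO43 and FBXO5, every member past the size rule, the 10 members with the highest mean CPM, the 5 with the largest difference each way among those with at least 1 CPM, and, of each list, the genes past the rule and the 2 with the highest mean. Other members, markers, neighbours and transcripts were chosen for their role or after their values were seen. One member is counted but not reported by name here. The members and lists were chosen with earlier results of these data known. Alternatives changed the scaling, the pseudocount, the unit and the minimum level.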

Additional observations from a re-analysis of the deposited data

How the results depend on the processing

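No paired analysis was possible because each group had 1 library. With TMM factors from coding genes alone, 3 members were lower in LAC (7 otherwise), the member median was 0.0515 (against -0.09), the oocyte median -1.95 (against -2.13), the cumulus median 0.36 (against 0.19) and the median of the pathway lists -0.10 (against -0.24). This follows from the shift of 0.18 that these factors add to every log2 ratio. With a pseudocount of 0.1, 1 member was higher (FBXL22, on 27 counts in LAC and 11 in CG) and 8 were lower, FBXL8 among them, beside 18.3% of coding genes. With a pseudocount of 5, 5 members were lower, without FBXO43 and FBXO34, beside 6.06%. Counting all rows with a member's name, 1 row was higher (MSTRG.18453 of FBXL20). With median-of-ratios factors, library totals, gene FPKM, no minimum count or a mean of at least 5 CPM, the count of lower members was 7. FBXW12 ranged from -2.80 to -2.55 over the alternatives, FBXO5 from -1.43 to -1.23 and FBXO25 from -1.56 to -1.35, and no called difference changed sign. The alternatives on pathway lists and on all rows were chosen after seeing the data. Depth limits the 9 genes under 1 CPM in both libraries, and 1 library per group leaves the spread between animals unmeasured for every gene.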
